A study of Mus musculus with 6 samples.

Results

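Of the 1065 olfactory receptor genes probed by the arrays, 208 gave signal in sorted mouse bone marrow cells. A receptor gene (symbol starting with Olfr) was taken as detected when the scanner marked its probe as well above background on 3 or more of 6 arrays. That mark is given by the software to a spot whose signal clears the local background and its noise. The arrays carried 1152 probes for these receptors, matched through the RefSeq transcript named for each probe, and each gene was represented by its probe with the highest mean signal. All 208 are among the 23249 genes, of 37163 on the array, that met the same detection rule and were tested for age. The 208 genes were chosen by their detection and brightness on these same arrays, so those values are described below without a test.

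The series compared RNA from bone marrow cells of young and old C57BL/6 mice, sorted after labelling and described by the submitters as mesenchymal stem cells. The young group held 3 samples from mice aged 3 months and the old group 3 samples from mice aged 24 months, with no allele or treatment named for either. Each sample was hybridised to its own 1-colour Agilent array, and the small number of arrays limits the precision of every value. Nothing in the labels says that samples came from separate animals, so a p-value here sets the ages against sample-to-sample spread that may in part be technical. All 6 arrays lay on 1 slide, young arrays in one of its rows and old ones in its other row, so age and slide row cannot be told apart.

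Olfactory receptors are G protein-coupled receptors that bind odorants in the sensory neurons of the nose. Each neuron transcribes a single receptor allele from a large family that lies in clusters on many chromosomes, and the receptor signals through the G protein subunit Gnal, the adenylyl cyclase Adcy3 and a cyclic nucleotide-gated channel. Some receptors are also transcribed outside the nose, and Olfr544, a receptor for azelaic acid, has been studied in fat and liver.

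The old arrays were dimmer as a whole. The 75th percentile of the processed signal, the scanner software's background-subtracted intensity, ran from 315 to 394 on the young arrays and from 229 to 319 on the old ones, and 55.2% to 60.0% of all probes on young arrays against 50.9% to 53.4% on old arrays cleared background. Values were therefore set relative to each array's 75th percentile on a log2 scale. The labelled cell type was checked against stromal markers, of which 13 of 22 were detected. Pdgfra, Pdgfrb, Prrx1, Prrx2, Twist1, Twist2, Foxc1 and Grem1, which mark mesenchymal cells, were well above background on no array. Other markers on the list, which are less specific to stroma or shared with blood and endothelial cells, such as Eng, Cd44, Ly6a, Vcam1 and Thy1, were detected on all 6 arrays. So were Lepr, Cxcl12, Col1a2, Nes and Cspg4. Col1a2 gave 2463, 419 and 2031 in young and 196, 204 and 144 in old replicates. Of the 13 tested, Lepr was higher in old samples by 1.04 (log2, limma, adjusted p = 0.0253). Cxcl12 and Thy1 were lower, with differences of -2.38 and -1.54 (adjusted p = 0.0321 and 0.0431). Col1a1 passed the detection rule through the young arrays alone, at 1210, 197 and 1108, against 3.74, 3.17 and 7.32 in old replicates. Its old values cleared background on no array, so neither a size nor a test is quoted for it. The median difference of the 13 was -1.20, which counts Col1a1 and Kitl, both well above background on no old array. The summed level of the list was 4.96 to 5.42 on the young and 5.41 to 5.62 on the old arrays. That sum leaned on the probe of Lepr, the brightest of the list, at 3.45 to 3.76 on the young and 4.43 to 4.88 on the old arrays. All 19 leukocyte markers and all 14 erythroid markers on the array were detected on all 6. The summed level of the leukocyte markers was 7.63 to 8.33 (log2) on the young arrays and 6.95 to 7.13 on the old arrays, with 10 of 19 lower in old samples past an adjusted p of 0.05. The erythroid sum was 10.19 to 10.63 in young and 10.34 to 10.47 in old samples, with none of 14 past it (1 at an unadjusted limma p under 0.05), and 6 of 16 neutrophil markers were lower. Over all tested genes, 4.02% were lower and 4.38% higher past that threshold. In such bulk samples, fewer cells of a type and less RNA per cell cannot be told apart, and the part of these cell types in the receptor values was not tested.

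The upstream sequence of 4 receptor genes is shown because Olfr544 was the brightest of the 208 and Olfr94, Olfr123 and Olfr128 were higher in old samples and lie in 1 receptor cluster. Each is the RefSeq window of GRCm38.p6 from 250 bases before to 50 bases after the annotated start, printed 5′ to 3′ on the gene's strand. Capitals mark matches, on either strand, to TATAAA, the core-promoter box bound by TBP, or to the homeodomain core TAATTA, as bound by Lhx2 and Emx2. The windows are chr7:102488258-102488557 (minus strand) for Olfr544, chr17:37197917-37198216 (minus) for Olfr94, chr17:37795196-37795495 (plus) for Olfr123 and chr17:37923318-37923617 (plus) for Olfr128.
Olfr544: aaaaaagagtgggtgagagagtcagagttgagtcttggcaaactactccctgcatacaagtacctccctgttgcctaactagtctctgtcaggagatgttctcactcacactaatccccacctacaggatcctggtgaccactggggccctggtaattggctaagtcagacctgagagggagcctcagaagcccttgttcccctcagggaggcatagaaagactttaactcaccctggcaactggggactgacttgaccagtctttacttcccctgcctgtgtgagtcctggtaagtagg
Olfr94: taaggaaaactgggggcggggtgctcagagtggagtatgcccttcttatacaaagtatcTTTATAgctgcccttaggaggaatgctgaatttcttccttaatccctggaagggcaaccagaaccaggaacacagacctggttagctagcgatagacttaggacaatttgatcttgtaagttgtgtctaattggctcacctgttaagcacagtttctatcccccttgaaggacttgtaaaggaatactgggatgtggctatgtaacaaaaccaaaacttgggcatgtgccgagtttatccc
Olfr123: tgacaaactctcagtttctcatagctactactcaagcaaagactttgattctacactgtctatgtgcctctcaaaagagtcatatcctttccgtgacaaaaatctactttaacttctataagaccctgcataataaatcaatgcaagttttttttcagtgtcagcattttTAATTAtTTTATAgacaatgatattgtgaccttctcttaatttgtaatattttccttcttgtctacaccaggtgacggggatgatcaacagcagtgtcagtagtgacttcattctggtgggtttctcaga
Olfr128: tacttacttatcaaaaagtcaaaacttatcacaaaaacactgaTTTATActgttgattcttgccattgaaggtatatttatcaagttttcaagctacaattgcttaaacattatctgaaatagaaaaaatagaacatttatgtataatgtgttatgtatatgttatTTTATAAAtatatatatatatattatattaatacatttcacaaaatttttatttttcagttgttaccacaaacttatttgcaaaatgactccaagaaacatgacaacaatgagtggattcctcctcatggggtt

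The Olfr544 window held neither motif nor CCCNNGGG (an Ebf-like core), and its annotated start does not fall on an ATG. Olfr94, Olfr123 and Olfr128 each held TATAAA, Olfr123 held TAATTA as well, and in all 3 the annotated transcript begins at an ATG. That was the usual case: 75.4% of the 183 detected receptor genes with a window, and 71.6% of 765 windows of other receptor genes, had an ATG exactly at the annotated start, against 5.83% of all 32851 windows in the table. For such genes the window shows the bases just before the coding sequence and the first 50 bases of it. TATAAA was found in 34.4% of the detected receptors' windows, 42.6% of the other receptors' and 13.6% of all. TAATTA was found in 20.8%, 18% and 5.29%, and CCCNNGGG in 2.73%, 3.14% and 13.7%. The receptor windows thus differed from all windows in these shares whether or not the gene was detected, and a match is a run of letters, not a known binding site.

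Most receptor genes gave no signal above background. Of the 1065, 760 (71.4%) were well above background on no array, 69 on 1, 28 on 2, 41 on 3, 16 on 4, 15 on 5 and 136 on all 6. The 208 are thus 19.5% of the family, beside 67.9% of all 19892 genes with a curated RefSeq transcript. At the edge of the rule, the brightest genes on exactly 3 arrays were Olfr791 (mean signal 59.0 intensity units) and Olfr477 (29.1), and the brightest on exactly 2 arrays, which were left out, were Olfr745 (34.3) and Olfr283 (22.4). Among the 208, 136 were detected on 3 young and 3 old arrays, 14 on all 3 young and no old array, and none on all 3 old and no young array. Those 14 passed the rule through the young arrays alone, so their sizes are given as bounds and no p-value is quoted for them. They remain in the fit and in the counts and medians below. The highest bound was that of Olfr843, at least 1.24-fold lower in old samples.

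The number of receptor genes clearing background was 238, 241 and 185 on the young arrays, in replicate order, a mean of 221 ± 31.5 (SD, n = 3). On the old arrays it was 179, 189 and 171, a mean of 180 ± 9.02 (SD, n = 3). Young replicate 3 lay among the old arrays, below old replicate 2, so the groups overlapped. Over all genes the count was also lower on every old array, at 21336 to 22292 against 22965 to 24487.

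The detected receptor probes were dim. Their median signal was 36.9, beside 272 for all tested genes, and 200 of the 208 (96.2%) lay under the latter. Of the 208, 134 (64.4%) had a mean signal under 50, 52 lay between 50 and 100, and 22 were above 100. The lowest signal called well above background was 13.3 to 17.4 on the 6 arrays, so most lay within a few-fold of the detection floor. Their median signals were 42.6, 39.98 and 33.0 in the young samples against 37.6, 34.2 and 29.7 in old samples, and the groups overlapped. Because each probe has its own sequence and response, this order ranks probes and does not rank transcripts.

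**Figure D1:**
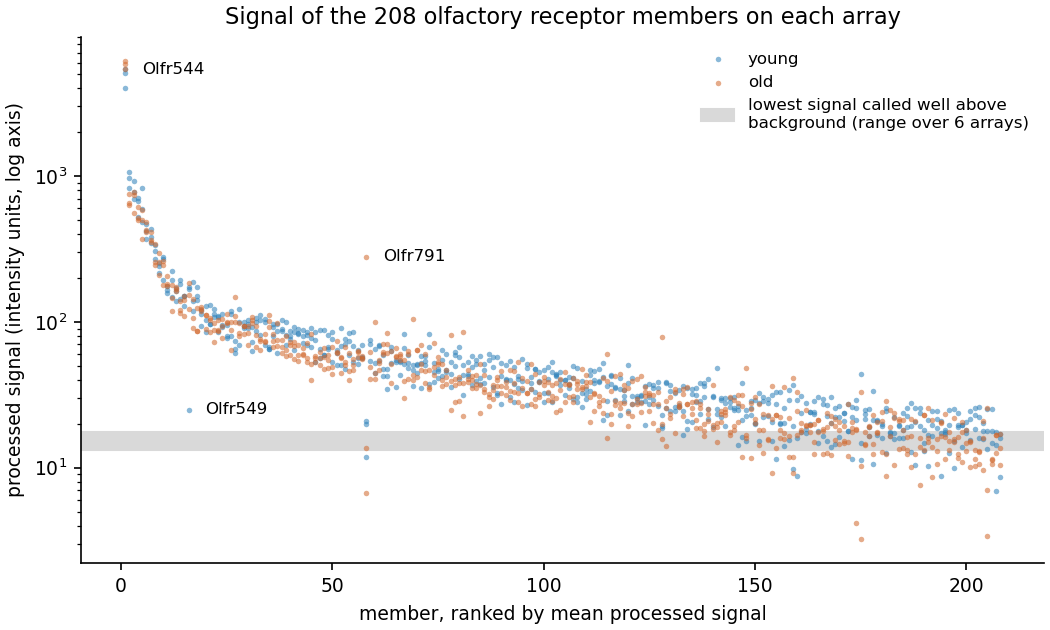
Processed signal (intensity units, log axis) of the 208 detected olfactory receptor genes on each of 6 arrays, ranked by mean signal, with young arrays in blue and old arrays in orange. The grey band is the range over arrays of the lowest signal called well above background, 13.3 to 17.4. Olfr544 stands apart at the left, 134 genes average under 50, and Olfr549 and Olfr791 each have 1 array far from the other 5.

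Olfr544 was the brightest receptor. It gave 5457, 5104 and 4048 in the young samples and 6186, 5894 and 5395 in the old ones, in replicate order here and below, and 3330 tested genes were brighter. Without scaling, the groups overlapped, since young replicate 1 exceeded old replicate 3. Relative to each array's 75th percentile, it was 3.75 ± 0.10 (log2, SD, n = 3) in young and 4.46 ± 0.16 (SD, n = 3) in old samples, and every old array lay above every young one. The difference of 0.72 ± 0.11 (log2, SE) passed the test across all genes (limma, adjusted p = 0.0274). Its call was lost without scaling, with no filter on dim probes, when young replicate 2 or 3 or old replicate 2 or 3 was left out, and with replicate number as a block.

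Olfr544 lies at the edge of a receptor cluster that begins beside Rrm1, the large subunit of ribonucleotide reductase, with 1 receptor gene between them. Rrm1 had a mean signal of 24290 and a difference between the ages of 0.00 (log2, adjusted p = 0.989). The receptors on either side, Olfr543 and Olfr545, had mean signals of 6.02 and 12.2 and were well above background on no array. The cluster also contains the β-globin genes, and Hbb-bt, an adult β-globin, gave 115484 to 198542 on the 6 arrays. The receptors Olfr64 to Olfr69 beside the globins were nevertheless well above background on no array, with mean signals of 2.96 to 5.91. Over the 6 arrays the tested genes most like Olfr544 in their scaled log2 values were Rps28 (Pearson r = 0.9997), the predicted transcript XR_031492 (r = 0.9990) and Nkain2 (r = 0.9983). With only 6 arrays in 2 groups such likeness was common, and 1039 tested genes had r above 0.95.

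Of the next brightest receptors, only Olfr1402 passed the test for age among the 7 that follow Olfr544. Olfr1466 gave 972, 1060 and 826 in young and 755, 658 and 638 in old replicates. All old arrays were lower before scaling, but the scaled difference was -0.03 ± 0.09 (log2, SE; adjusted p = 0.872). Olfr1229 gave 925, 691 and 776 in young and 776, 741 and 555 in old replicates, overlapping groups with a scaled difference of 0.24 ± 0.17 (adjusted p = 0.396). These receptors, like most of the 208, are orphan receptors whose odorants are not well known.

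Olfr373 gave 711, 670 and 522 in young and 610, 519 and 499 in old replicates, and Olfr1368 gave 830, 597 and 487 against 590, 498 and 369. Their scaled differences were 0.23 ± 0.10 (adjusted p = 0.176) and 0.06 ± 0.17 (adjusted p = 0.838). Both pairs of groups overlapped in unscaled signal. Olfr1402 gave 422, 469 and 372 in young and 487, 413 and 424 in old replicates, also overlapping, yet its scaled values were higher in old samples by 0.52 ± 0.10 (adjusted p = 0.0352). Olfr522 and Olfr319, at mean signals of 383 and 293, had scaled differences of 0.42 ± 0.11 (adjusted p = 0.0763) and 0.33 ± 0.10 (adjusted p = 0.0863). Olfr122 and Olfr1252, at 246 and 237, had 0.53 ± 0.13 (adjusted p = 0.0604) and 0.34 ± 0.12 (adjusted p = 0.137).

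Between the ages, 16 of the 208 receptor genes (7.69%) passed an adjusted p of 0.05 (limma), 15 higher and 1 lower in old samples. Over all 23249 tested genes the share was 8.4%, 4.38% higher and 4.02% lower, so the share of receptors called was near the background. Without adjustment, 50 of the 208 had a limma p under 0.05, beside 6731 of all genes. Most receptors called were higher under each scaling between arrays: 13 higher and 1 lower with the median, 14 and 1 after quantile normalization, 11 and 2 after cyclic loess and 9 and 2 in the authors' deposited log2 values. With no scaling between arrays 2 were higher and 3 lower. Over all genes the higher and lower calls were 1018 and 934 in the scaled values, 598 and 939 in the deposited values, 652 and 904 after cyclic loess and 26 and 2280 without scaling. They were 768 and 946 with the median and 749 and 905 after quantile normalization. With background correction by normexp, 32 receptors (15.4%) were higher and none lower. Over all genes normexp gave 1768 higher and 1104 lower, 12.4% in all.

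Calls were lost whenever 1 array was left out, which leaves 5 arrays in the fit. Of the 16, none was still called without young replicate 2, without old replicate 2 or without old replicate 3, 2 were without young replicate 3, 4 without young replicate 1 and 11 without old replicate 1. All 16 kept their sign in each of these fits. Over all genes, leaving out 1 array gave between 0 and 1262 calls, so the receptors followed the whole table in this respect.

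In 4 receptors higher in old samples the difference was largest or had the smallest p while all arrays cleared background. Olfr123 gave 65.2, 64.7 and 67.1 in young and 111, 102 and 92.1 in old replicates. Every old array was above every young one with and without scaling, and the scaled difference was 1.07 ± 0.13 (log2, SE; adjusted p = 0.0217). Olfr103 gave 79.9, 95.9 and 77.1 against 113, 100.3 and 98.8, again with no overlap on either scale, and differed by 0.75 ± 0.11 (adjusted p = 0.0255). Olfr48, the receptor with the largest difference, gave 60.8, 73.7 and 64.9 against 111, 149 and 99.8, and differed by 1.28 ± 0.21 (adjusted p = 0.0286). Olfr1109 gave 42.6, 47.4 and 34.7 against 70.4, 61.0 and 84.6, and differed by 1.24 ± 0.20 (adjusted p = 0.0274). In a fit without scaling Olfr48 and Olfr1109 kept their calls (adjusted p = 0.0348 and 0.0447), whereas Olfr123 and Olfr103 lost theirs (adjusted p = 0.0793 and 0.32). Every old array above every young one in unscaled signal was also seen in 40.8% of the 760 receptor genes that cleared background on no array.

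Olfr1349, Olfr868 and Olfr713 also had every old array above every young one without scaling. Their scaled differences were 0.91 ± 0.19 (adjusted p = 0.0409), 0.66 ± 0.14 (adjusted p = 0.0443) and 0.71 ± 0.12 (adjusted p = 0.0278). In the other receptors called higher, Olfr1126, Olfr128, Olfr94, Olfr470, Olfr332 and Olfr417, the unscaled groups overlapped and the scaled differences ran from 0.51 for Olfr417 to 0.72 for Olfr128. Olfr1126 was near the floor, at 17.6, 17.3 and 16.5 in young and 25.1, 19.0 and 16.5 in old replicates, and cleared background on 2 arrays in each group. Olfr657 was the receptor called lower. It gave 36.2, 38.3 and 30.5 in young and 19.8, 17.7 and 16.4 in old replicates, with no overlap on either scale, and differed by -0.51 ± 0.09 (adjusted p = 0.0306). It was well above background on 3 young arrays and 1 old array, and normexp correction turned its difference to 0.092.

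**Figure D2:**
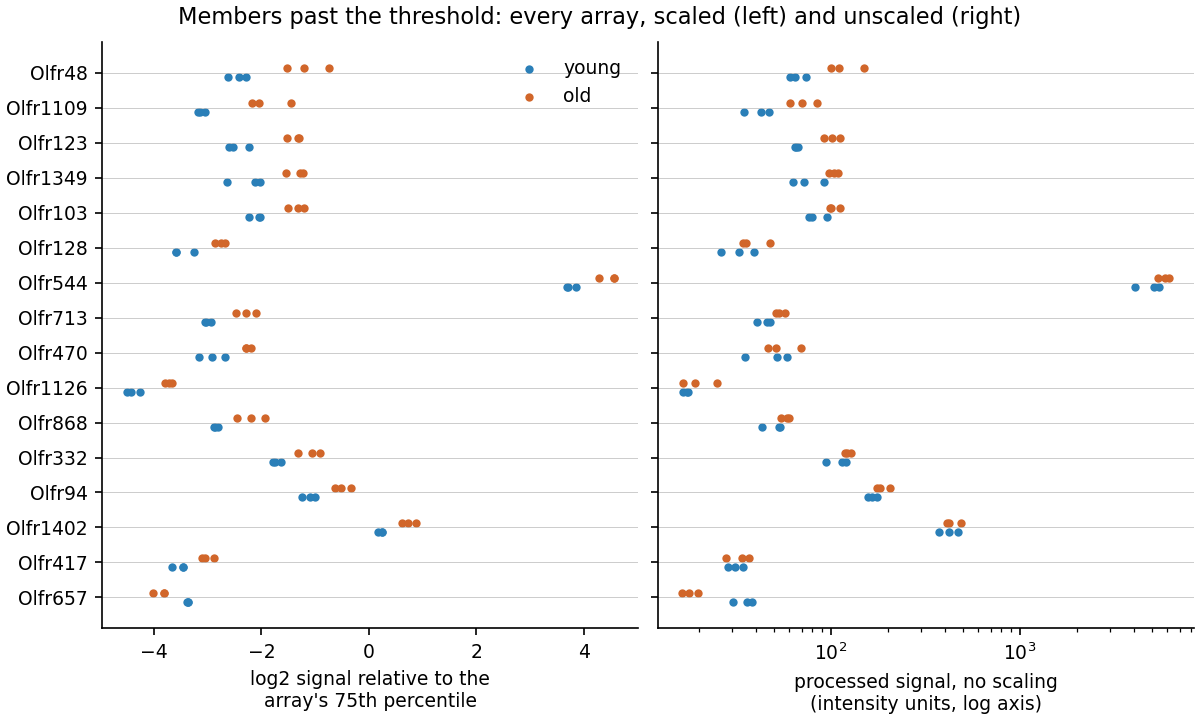
Values on every array for the 16 detected receptor genes past an adjusted p of 0.05, as log2 signal scaled to the 75th percentile of each array (left) and as unscaled processed signal on a log axis (right), with young arrays in blue and old arrays in orange. Scaled values separate the ages in every gene shown. Unscaled values are higher on all old arrays in Olfr48, Olfr1109, Olfr123, Olfr1349, Olfr103, Olfr713 and Olfr868 and lower on all old arrays in Olfr657.

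Several large differences came from 1 array. Olfr791 gave 281 in old replicate 2 and 6.66 to 21.1 on the other 5 arrays, and its difference of 1.23 ± 1.36 (log2, SE; adjusted p = 0.591) turned to -0.43 without that array. Olfr477 gave 78.4 in old replicate 2 and 15.6 to 22.9 elsewhere. Olfr549 gave 25.1 in young replicate 3 and 123 to 185 elsewhere, with a difference of 1.20 ± 0.68 (adjusted p = 0.297) that became 0.37 without that array. Olfr1148 and Olfr90 were low on old replicate 3, at 4.16 and 3.25, against 18.0 to 29.0 and 10.2 to 44.2 elsewhere. Most of the 208 genes were measured by 1 spot on each array, 203 in all, so a single spot decides such a value. A gap of at least 3-fold between 1 array and the nearest of the others was seen in 0.966% of the receptors for a high array and in 1.45% for a low one, beside 0.409% and 0.646% of all tested genes. Olfr745, left out at 2 arrays, had the same form, with 147 in old replicate 1 and at most 17.2 elsewhere.

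Besides Olfr657, the most negative differences were those of Olfr1148, Olfr871 and Olfr978. Olfr1148 and Olfr978 cleared background on all 3 young arrays and on no old array, which bounds them as at least 1.06-fold and 1.05-fold lower in old samples. Olfr978 gave 25.7, 23.8 and 19.2 in young and 15.9, 13.9 and 7.64 in old replicates. Because Olfr1148 and Olfr978 passed the detection rule through their young values, a gap between their groups is partly set by that rule. Measured differences of both genes are given below only to show how far 1 array moves them. Olfr871 gave 25.3, 13.4 and 17.8 against 25.6, 7.003 and 3.39, overlapping groups with a difference of -0.65 ± 0.62 (log2, SE; adjusted p = 0.529). Without old replicate 3, the measured differences became -0.11 for Olfr1148 (from -0.73), -0.27 for Olfr978 (from -0.49) and -0.095 for Olfr871, and without old replicate 1 that of Olfr871 became -1.31. Olfr432 had its spot on old replicate 1 left out as an outlier, and its difference of 0.46 ± 0.48 (adjusted p = 0.578) rests on 5 arrays.

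Across the 208 receptors the median difference was 0.22 (log2), beside 0.08 over all tested genes, and 164 (78.8%) had a positive difference against 62.5% of all. Without scaling between arrays the receptor median became -0.23 and that of all genes -0.37, so its sign depended on the scaling. The gap between the medians was 0.13 both ways. That was fixed in advance, because the scaling subtracts the same value from every gene of an array. After quantile normalization the medians were 0.17 and 0.02, after cyclic loess 0.16 and -0.00, and in the deposited values 0.16 and -0.01. Every old array lay above every young one in 49 receptors (23.6%, background 24.9%) and below in 4 (1.92%, background 12.3%). In unscaled signal these counts were 10 above (4.81%, background 1.6%) and 33 below (15.9%, background 29.4%).

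Probes at background gave larger positive differences in the scaled values than the detected receptors did. The 760 receptor genes that were well above background on no array had a median scaled difference of 0.64 (log2), with 93.7% positive and 65.4% with every old array above every young one. In unscaled signal their median difference was 0.19. The receptors on all 6 arrays had medians of 0.26 scaled and -0.19 unscaled, and those on 3 to 5 arrays 0.18 and -0.27. The part of the floor in the receptors' median was not tested.

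By brightness, the receptors called for age were mostly the brighter ones. In the 39 with a mean scaled log2 signal of -4 or less, the median difference was 0.18 and 2.56% were called, beside -0.17 and 13.3% of all 1115 tested genes in that range. The 1 receptor called there was higher in old samples, whereas 12 of the 1115 genes were called higher and 136 lower. In the 79 between -4 and -3, it was 0.22 with 3.8% called, beside 0.07 and 7.11%. In the 52 between -3 and -2, it was 0.16 with 7.69% called, beside 0.11 and 9.08%. In the 38 above -2, it was 0.33 with 21.1% called, all 8 of them higher, beside 0.09 and 8.18% of 16124 genes, 789 of them called higher and 530 lower. The 38 had a median signal of 111 and the 16124 genes 872, so this open range does not match them in brightness. These ranges share the same arrays and scaling, and the differences between ranges were not tested.

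**Figure D3:**
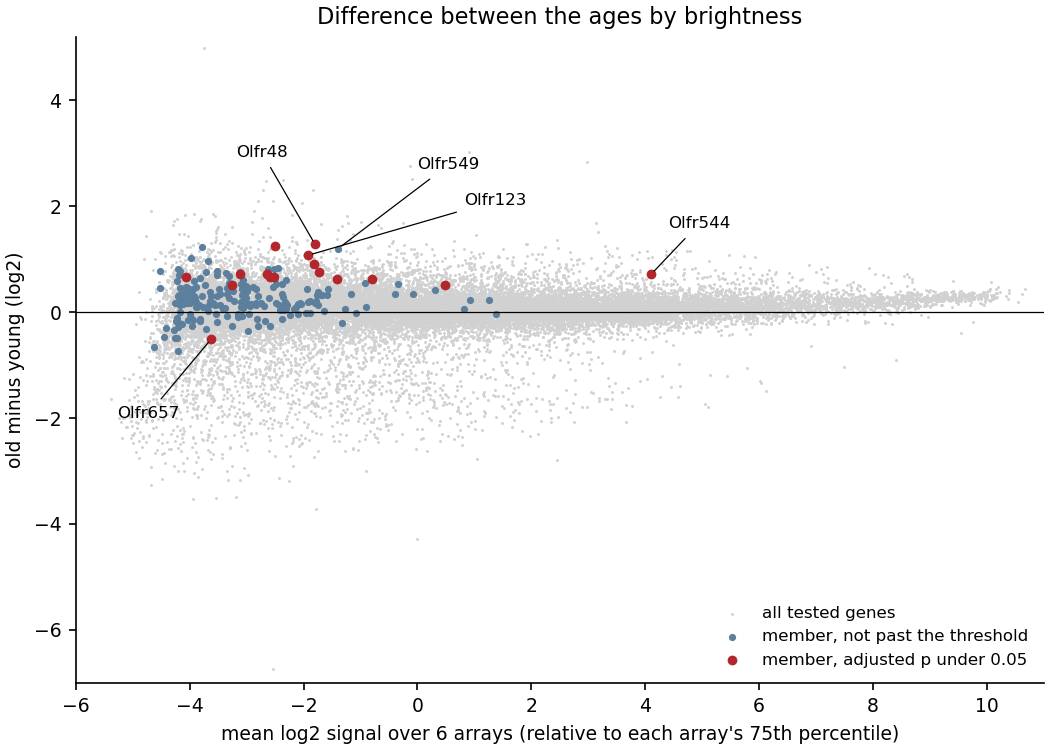
Difference between old and young samples (log2) against mean log2 signal over 6 arrays, both relative to each array's 75th percentile, for all 23249 tested genes (grey), detected receptors not past the threshold (blue) and past it (red). The receptors gather at the dim end, with Olfr544 alone far to the right. 15 of the 16 red points lie above 0, a split that becomes 2 above and 3 below without scaling between arrays.

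A second probe of the same receptor rarely gave signal. Of the 208 genes, 27 had a further probe, which met the same detection rule in 1 gene (3.7%), Olfr456. Among all 4373 tested genes with a symbol and a further probe the share was 76.7%. Within the 4 ranges of brightness above, from dim to bright, the shares were 0% of 7, 0% of 13, 25% of 4 and 0% of 3 receptors. They were 7.53%, 22.4%, 46.8% and 87.7% of all such genes. So few receptors make the shares by range coarse, and the brightest range is not matched in brightness, as above. The brightest gene of this kind was Olfr373, whose probe gave a mean of 588 while its further probe gave 5.42 and was well above background on no array. Olfr629 gave 139 and 9.997, and Olfr1115 gave 80.7 and 3.86. The probe was chosen as the brighter of those present, in these genes as in all others, and which transcript either probe measured was not tested. Each of the 16 receptors called for age, Olfr544 included, rests on 1 probe.

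**Figure D4:**
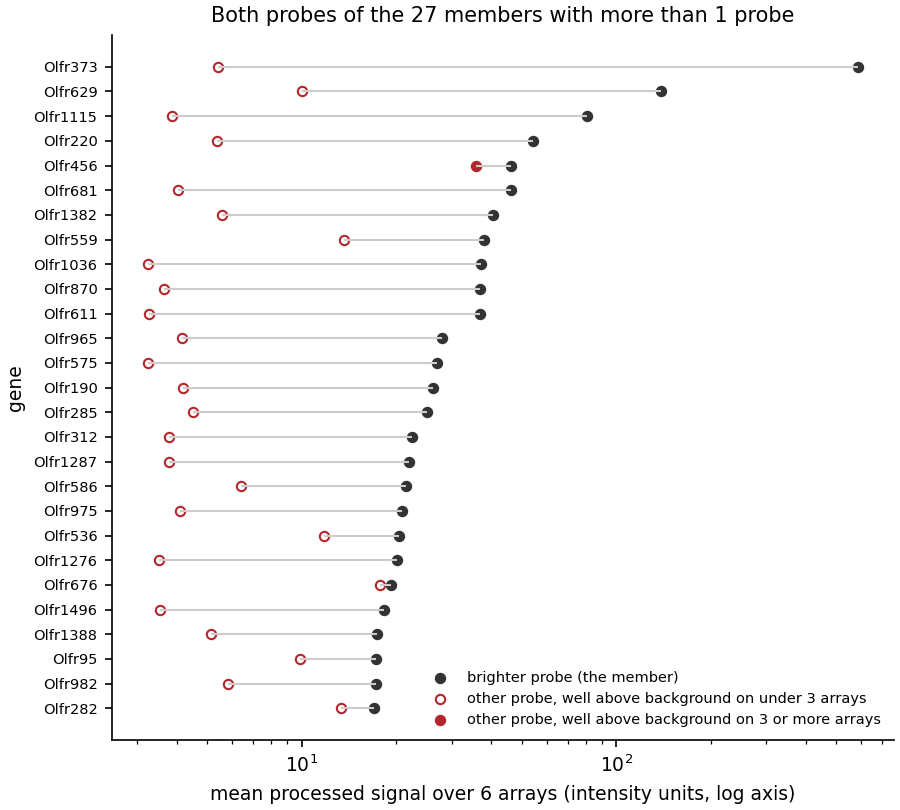
Mean processed signal over 6 arrays (intensity units, log axis) of the brighter probe (black) and the further probe (red) of the 27 detected receptor genes with more than 1 probe. Filled red points mark a further probe well above background on 3 or more arrays, which held for Olfr456 with 46.4 and 35.8. The other 26 further probes are open, most of them under 10.

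Detected receptors lay in most of the large genomic clusters, taken as runs of receptor genes whose starts are at most 1 Mb apart. The largest, between Lrrc55 and Ptprj, held 35 detected of 212 receptors on the array (16.5%), among them Olfr48, Olfr1109 and Olfr1126. The cluster from Rrm1 to Fam160a2, with Olfr544, held 22 of 118 (18.6%). A smaller one between Sprn and Cyp2e1 held 10 of 19 (52.6%), with Olfr522 the brightest and none called for age. When a receptor was detected, the next receptor along the chromosome was detected in 26.6% of 203 pairs, against 17.4% where the first was not.

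The cluster between Gabbr1 and Esp36, which runs from Olfr90 to Olfr136 and also holds the MHC class I genes H2-M2 and H2-M3, had 13 of 46 receptors detected (28.3%). Of these 13, Olfr94, Olfr103, Olfr123 and Olfr128 were higher in old samples and none was lower, where the background is 4.38% higher and 4.02% lower, with a median difference of 0.53 (log2) over the 13. Olfr94 gave 176, 165 and 157 in young and 205, 175 and 182 in old replicates, where 1 old array lay just under 1 young array before scaling. Olfr128 gave 39.3, 32.6 and 26.1 against 47.5, 34.5 and 35.7, which overlapped. The other 9 were not called and ranged widely, from -0.47 for Olfr90 to 0.64 for Olfr91, with 0.53 for Olfr122 and 0.59 for Olfr95. Olfr96 gave 114, 109 and 122 against 87.6, 72.7 and 98.3, lower on all old arrays before scaling, with a scaled difference of 0.02 ± 0.21 (adjusted p = 0.955), and Olfr97 differed by -0.01 ± 0.15 (adjusted p = 0.974). The cluster was singled out after these values were seen.

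Receptors followed in other tissues were mostly at background here. Olfr78, known from the carotid body and kidney, Olfr16, known from sperm and muscle, Olfr558 and Olfr99 were well above background on no array. Olfr2 and Olfr1393 were so on 1 array each and Olfr56 on 2. None of these 7 entered the test.

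Genes that carry the odorant signal were partly present. Of 20 on the array, 14 were tested, 2 were lower in old samples and none higher (background 4.02% lower and 4.38% higher). Their median difference was -0.08 (log2) beside 0.08 over all tested genes. That median counts Camk2b, which passed the detection rule through the young arrays alone. Both genes called lower were regulators rather than core components: Rgs2, which limits G protein signalling, differed by -1.74 ± 0.17 (log2, SE; adjusted p = 0.0178), and Grk3, a receptor kinase, by -0.99 ± 0.15 (adjusted p = 0.0262). Gnal was detected on all 6 arrays with a difference of -0.29 ± 0.21 (adjusted p = 0.401), and the channel subunits Cnga2 and Cngb1 had differences of 0.12 and 0.14 (adjusted p = 0.674 and 0.757). Adcy3, Cnga4 and the chloride channel Ano2 were well above background on no array.

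Of 23 genes for receptor trafficking and choice, 17 were tested, 1 was higher and 1 lower (background 4.38% and 4.02%), and the median difference was 0.02. Rtp1, which helps receptors reach the cell surface, gave 26.8, 23.5 and 16.5 in young and 33.6, 25.04 and 27.7 in old replicates, near the floor and overlapping before scaling, and differed by 0.84 ± 0.14 (adjusted p = 0.0293). Ebf1, a transcription factor of olfactory neurons and of B cells, gave 263, 172 and 173 against 24.6, 10.4 and 18.0 and differed by -3.13 ± 0.30 (adjusted p = 0.0178). It was well above background on 3 young arrays and 1 old array, so the size of its difference rests on old values near the floor. Ebf1 is also on the B cell list, and of the 13 other B cell markers tested 7 were lower in old samples (background 4.02%). Rag1, among the 7, was well above background on no old array. The summed level of the B cell list without Ebf1 was 5.28 to 6.20 (log2) on the young and 3.00 to 4.01 on the old arrays. The part of B cells in the value of Ebf1 was not tested. Lhx2 and Emx2, homeodomain factors of receptor choice, and Ebf2 were well above background on no array. Of 18 markers of olfactory sensory neurons, 8 were tested and none passed. These included Omp, the mark of mature neurons, with a difference of 0.04 ± 0.19 (adjusted p = 0.907), Ncam1 with -1.13 ± 0.31 (adjusted p = 0.0776) and Tubb3 with 0.57 ± 0.17 (adjusted p = 0.0938). In limma, 3 of the 8 had an unadjusted p under 0.05, and the median difference of the 8 was 0.18. The other 9, among them Gap43, Stoml3 and Ncam2, were well above background on no array, and Gng8 was so on 1.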

How the data were processed

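Total RNA from 6 samples, extracted with Trizol per the labels' protocols, was measured on Agilent 1-colour arrays. The authors deposited each array's spot intensity as Agilent Feature Extraction wrote it, background-subtracted and not scaled between arrays per the file headers, which give its version as 10.7.3.1 and mm9 as the build of the probe design. Version 10.5.1.1 stands in the submitters' processing notes. The files carry other flags, such as well above background, per the file headers. The authors also deposited log2 values for 52095 probes. These correlated with each array's own log2 intensity at r = 0.9986 to 0.9995, with column medians of 4.91, 4.92, 4.95, 4.94, 4.92 and 4.87 for young 1 to 3 and old 1 to 3. Their scaling and centring between arrays are not given in the sources used here.

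Control and outlier spots were left out and repeated spots averaged. A probe counted as well above background where more than 50% of its kept spots were. Symbols and gene order came from a RefSeq table and upstream windows from RefSeq, both GRCm38.p6. Main values were log2 processed intensity minus each array's 75th percentile, fitted without covariates by lmFit and eBayes (limma 3.58.1, R 4.3.3) with Benjamini-Hochberg adjustment over all tested genes at a threshold of 0.05. "At least N-fold" sets the measured group's mean against the mean, per array of the other group, of the higher of 2 signals, the lowest that cleared background and that of the gene itself. Other steps used Python 3.11.15, pandas 2.3.3, scipy 1.17.1 and matplotlib 3.10.9. The steps were tested on simulated data. The mean signal planned for normexp correction (offset 50) was not used, and the median signal stood in for it.

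Alternatives were other scalings, the deposited values, normexp, an intensity trend, other filters, the mean of probes, replicate number as a block and leaving out each array. Genes were named by rule: the receptors past the threshold (at most 8 per direction by p), the 8 brightest, the 10 brightest on all arrays, the 4 largest and 4 smallest differences, 8 receptors whatever their result, those at the edge of the detection rule and the 2 smallest p of each list. The other receptors past the threshold, those with 2 probes, neighbouring genes, single-array cases and cluster members were chosen after their values were seen. The receptors and gene lists were chosen with earlier results of these data known.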

Additional observations from a re-analysis of the deposited data

How the results depend on the processing

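The count of receptor genes past the threshold was 16. It was 5 without scaling between arrays, 32 with normexp correction, 0 with the replicate block and 0 with no filter on dim probes, and ranged from 0 to 17 when 1 array was left out (limma throughout). At an unadjusted p under 0.05 these counts of 0 stood at 52 with the block and 540 of 1065 with no filter, and at 43 to 48 where leaving out an array gave 0. Over all tested genes the 1952 calls became 0 with the replicate block (5679 unadjusted), 3556 with an intensity trend, 0 with no filter (11909 unadjusted) and 0 to 1262 with 1 array left out. They became 2306 without scaling between arrays and 2872 with normexp. Same-numbered young and old arrays had correlations of their deviations from the group means of -0.0266, 0.0158 and -0.00534. Arrays of unlike number had -0.106 to 0.106, so same-numbered arrays were no more alike than others by this measure. Whether a replicate number stands for a shared batch was not tested. Requiring all 6 arrays kept 136 receptor genes and a looser detection mark 457.

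Without scaling, differences turned to -0.21 for Olfr1229, -0.22 for Olfr373, -0.38 for Olfr1368, -0.034 for Olfr522, -0.12 for Olfr319 and -0.11 for Olfr1252, and the medians by brightness, from dim to bright, became -0.27, -0.23, -0.29 and -0.12. The brightest range had 0.21 in the deposited values, and the range from -4 to -3 had 0.21 to 0.32 with 1 array left out. Normexp gave 0.092 for Olfr657, 0.13 for Olfr1148, 0.25 for Olfr871 and 0.11 for Olfr978. Olfr1368 had -0.0051 after cyclic loess, -0.0035 in the deposited values and -0.030 to 0.24 with 1 array left out, Olfr1466 -0.079 to 0.037 and Olfr791 -0.43 to 2.20. The shifts without scaling were equal in size, because the scaling subtracts the same value from every gene of an array. The cause of the other shifts was not tested. Keeping outlier spots, an alternative added after the data were seen, gave 209 receptor genes. Signals near the floor limit what can be said of most receptors, and no spot was saturated.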

Other observations

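The larger of the other chemoreceptor families gave signal about as rarely as the olfactory receptors. Well above background on at least 3 of 6 arrays were 26 of 165 Vmn1r genes (15.8%) and 16 of 90 Vmn2r genes (17.8%), which are vomeronasal receptors, 5 of 35 Tas2r genes (14.3%), which are bitter taste receptors, and 4 of 14 Taar genes (28.6%), which are trace amine receptors, beside 19.5% of the olfactory receptors. The brightest probes were those of Vmn1r87, with a mean signal of 1248, Tas2r109 with 614, Vmn2r3 with 158 and Taar4 with 79.9. The shares on no array were 70.9%, 72.2%, 74.3% and 57.1%, beside 71.4% of the olfactory receptors. Of the 3 Tas1r genes, which are sweet and umami taste receptors, 2 were well above background on at least 3 arrays (66.7%) and 1 on none. These shares were not tested against each other.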
